A study of Mus musculus with 12 samples.

Results

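The 9 genes described here belong to the transforming growth factor β (TGF-β) pathway of the mouse. They comprise the ligand genes Tgfb1, Tgfb2, Tgfb3, Inhba and Bmp4, the receptor genes Tgfbr1, Tgfbr2 and Tgfbr3, and Smad7, an inhibitor that the pathway itself induces. They were picked by gene symbol, with earlier results of these data known, and are 9 of the 39423 genes in the count table. The cells were 3T3-L1, an established mouse preadipocyte line that turns into fat cells under DMI, which combines insulin and dexamethasone with 3-isobutyl-1-methylxanthine (MDI in the sample labels). Before induction they were transfected with nontargeted siRNA (siCtrl, labelled NC) or with siRNA against protein arginine methyltransferase 1 (siPRMT1, labelled KD). RNA was sequenced after 24 h of DMI (day 1, the stage of mitotic clonal expansion) or 72 h (day 3, the stage of differentiation), with 3 libraries in each of the 4 groups siCtrl day 1, siPRMT1 day 1, siCtrl day 3 and siPRMT1 day 3. All 4 groups were transfected and all received DMI, so no group shows untreated cells, and the knockdown was partial. Which of the 3 siRNAs against PRMT1 was used for sequencing is not given in the sources used here. The labels do not say whether the replicates came from separate cultures. The paper states for its data in general that at least 3 experiments were independent, without naming the sequencing libraries. The p-values therefore measure the spread between these libraries, which may be technical.

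TGF-β ligands are secreted in a latent form held by binding proteins of the extracellular matrix, and once released they bind the type II receptor Tgfbr2, which activates the type I receptor Tgfbr1. Tgfbr3 (betaglycan) is a co-receptor that presents ligand, above all the product of Tgfb2, to Tgfbr2. The active receptors phosphorylate Smad2 and Smad3, which enter the nucleus with Smad4, while Smad7 blocks and degrades the active receptor. In preadipocytes TGF-β is known for holding back fat cell differentiation and for raising matrix and contractile genes, whereas BMP ligands signal through other receptors and are known for committing precursor cells to the fat lineage.

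Library totals ran from 15116462 to 42357137 counts. Prmt1 itself was listed at 82.9 to 91.3 FPKM (counts scaled to gene length and library total) in the siCtrl libraries of day 1 and at 38.6 to 43.8 FPKM in the siPRMT1 libraries of that day. At day 3 it was at 111 to 140 FPKM against 62.0 to 71.7 FPKM, so the groups did not overlap at either day. On the log2 scale Prmt1 differed between siPRMT1 and siCtrl cells by -1.1 at day 1 and by -0.88 at day 3. Of 10 preadipocyte and fibroblast markers, 9 had a group mean over 1 FPKM in every group, and of 8 adipocyte markers 5 did so in siCtrl cells at day 1 and all 8 at day 3. The leukocyte marker Ptprc was listed at 0 in all 12 libraries, and the summed endothelial list did not pass 0.89 FPKM. Markers of other cell types were not all absent. Of 6 macrophage and leukocyte markers, 2 had a group mean over 1 FPKM in every group. The epithelial list summed to at most 0.12 FPKM at day 1. At day 3 it reached 11.44 FPKM in siCtrl and 6.64 FPKM in siPRMT1 cells. The muscle list summed to at most 1.26 FPKM at day 1. At day 3 it reached 7.66 FPKM in siCtrl and 4.65 FPKM in siPRMT1 cells. The library of siCtrl day 1 replicate 3 stood apart from the others of its group: the chi-square per gene was 50.6 and 30.8 against them, where all pairs of replicates elsewhere in the 4 groups lay between 4.14 and 15.8. Calls of the 9 genes that change without that library are therefore given both ways.

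Of the 9 genes, 6 had a promoter in the RefSeq table for GRCm38.p6, and 3 of these are shown for their different courses below. Tgfb2 rose between the days, Tgfbr2 fell, and Tgfb1 was not called. Positions count back from the base before the annotated start site, which is -1, and each sequence runs 5′ to 3′ on the strand of the gene. Capitals mark every match, on either strand, to a CRE (TGACGTCA), an E-box (CACGTG), a GC box (GGGCGG), the TATA box (TATAAA) or a C/EBP core (TTGCNNAA), and no matches overlapped.
Tgfb2, 26 bases of chr1:186706015-186706040, minus strand, positions -51 to -26: CACGTGgtttggggagcacaTATAAA
Tgfbr2, 250 bases of chr9:116175364-116175613, minus strand: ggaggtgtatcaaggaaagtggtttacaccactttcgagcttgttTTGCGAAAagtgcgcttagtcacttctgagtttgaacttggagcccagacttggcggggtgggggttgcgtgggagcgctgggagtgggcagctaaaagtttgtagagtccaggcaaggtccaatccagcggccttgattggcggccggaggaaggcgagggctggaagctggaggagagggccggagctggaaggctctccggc
Tgfb1, 250 bases of chr7:25686752-25687001, plus strand: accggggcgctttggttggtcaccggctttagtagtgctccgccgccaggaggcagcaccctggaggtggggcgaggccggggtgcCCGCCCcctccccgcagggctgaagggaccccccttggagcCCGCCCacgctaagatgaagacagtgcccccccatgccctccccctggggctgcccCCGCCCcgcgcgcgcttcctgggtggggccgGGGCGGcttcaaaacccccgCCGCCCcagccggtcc

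The Tgfb2 stretch holds an E-box at -51 and a TATA box at -31. These were the only matches to the 5 motifs in the 250 bases before its start site, of which 231 also lie in an exon of the count table. This start site is not the outermost of the gene. Upstream of it, the exons of the count table reach 186706220 and the RefSeq gene reaches 186709697. Among 32851 mouse promoters of the same length, 6.02% hold this E-box and 12.4% this TATA box. The Tgfbr2 promoter holds a single C/EBP core at -205 (9.56% of promoters) and no match to the other 4. The Tgfb1 promoter holds 5 GC boxes, at -164, -123, -67, -36 and -16 (32.7% of promoters hold at least 1), and its GC content is 75.2%, against 58.4% for Tgfbr2 and 53.6% for Tgfb2. The CRE (1.55% of promoters) was matched in no promoter of the 6 genes. The palindrome GTCTAGAC, to which SMAD proteins bind (0.167% of promoters), and TGTTCT, a core of glucocorticoid receptor sites (16.1%), were also matched in none. The short SMAD box CAGAC, held by 42.2% of promoters, was found at -221 and -204 for Tgfb2, at -160 for Tgfbr2 and not for Tgfb1. These matches describe the letters and are not binding sites.

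The co-receptor and the type II receptor were the most abundant of the 9 transcripts in every group. FPKM is scaled to gene length, so levels of different genes can be set side by side. Tgfbr3 stood above Tgfbr2 throughout, from 116 ± 3.47 and 90.1 ± 6.86 FPKM in siCtrl cells at day 1 to 42.4 ± 1.67 and 34.2 ± 2.19 FPKM at day 3 (mean ± SD, n = 3). Tgfb1 and Tgfbr1 followed at group means of 15.5 to 23.9 FPKM, with overlapping values in all 4 groups. Tgfb3 came next in all groups at means of 5.13 to 8.26 FPKM, but its values overlapped those of Tgfb2 in siCtrl cells at day 3. Smad7, Tgfb2 and Inhba had means of 0.763 to 4.48 FPKM. Tgfb2 stood below Smad7 at day 1 and above it at day 3, without overlap in either siRNA group. Bmp4 was listed at no more than 0.02 FPKM.

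**Figure D1:**
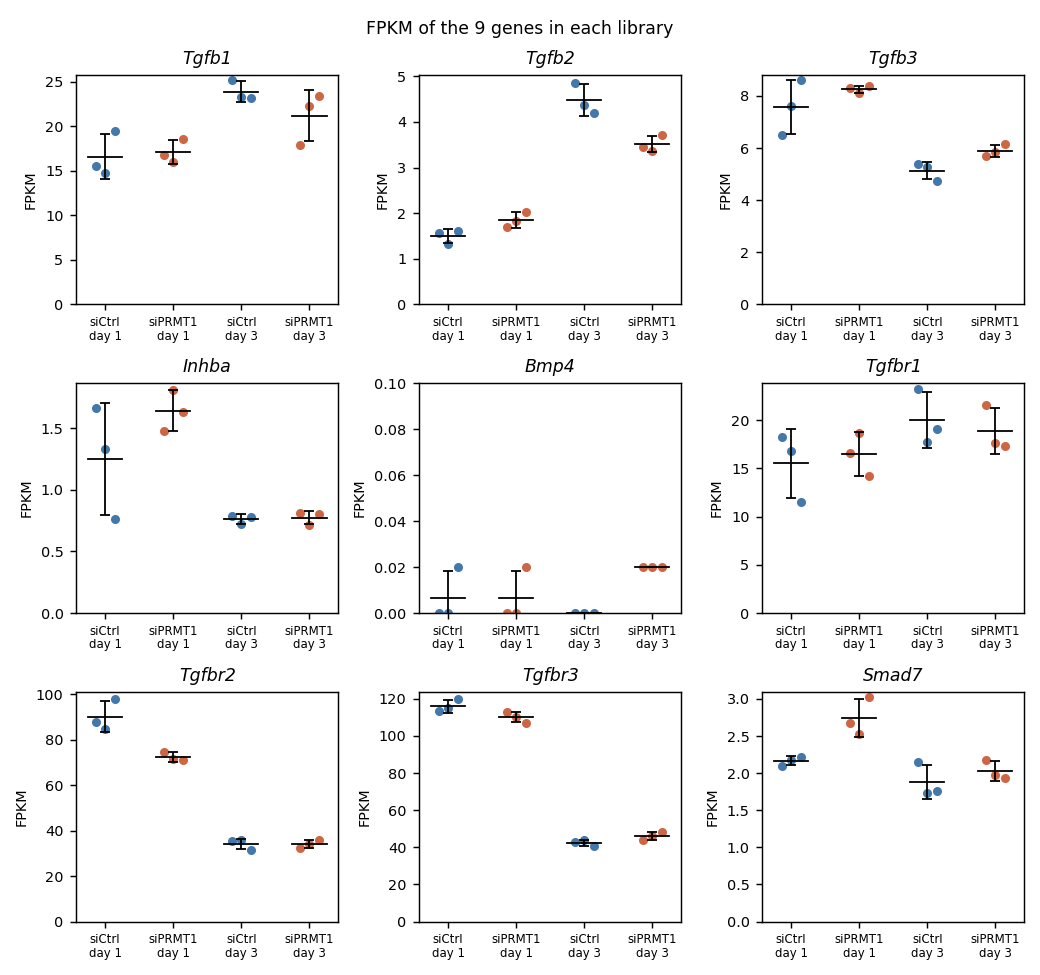
Level of each of the 9 genes in FPKM (linear axes from 0, scaled for each gene) in the 4 groups. Each point is a library, the horizontal line is the mean of 3 and the bar is 1 SD. Tgfbr2 and Tgfbr3 sit far lower at day 3 than at day 1, Tgfb2 sits far higher, and Bmp4 does not pass 0.02 FPKM.

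The first comparison was between the stages, day 3 against day 1 within each siRNA. Tgfb2 rose and Tgfb3, Tgfbr2, Tgfbr3 and Inhba fell in both siCtrl and siPRMT1 cells, and Tgfb1, Tgfbr1 and Smad7 did not pass both thresholds in either. A gene is called here if edgeR's quasi-likelihood test gave an adjusted p under 0.05 and its log2 fold change was beyond 0.5 in either direction. The 8 genes other than Bmp4 passed the filter on low counts in every comparison. In siCtrl cells 1 of the 8 was called higher, beside 22.7% of all genes tested, and 4 were called lower, beside 20.4%. In siPRMT1 cells the counts were again 1 and 4, beside 19.0% and 17.4%. In all, 43.2% of genes were called in siCtrl cells and 36.5% in siPRMT1 cells. In bulk RNA, fewer cells of a type and less RNA per cell cannot be told apart.

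Tgfb2 encodes the TGF-β ligand with the lowest mean transcript level of the 3 in each group. In siCtrl cells it was listed at 1.57, 1.32 and 1.61 FPKM at day 1 and at 4.86, 4.37 and 4.20 FPKM at day 3. In siPRMT1 cells it was at 1.69, 1.83 and 2.03 FPKM at day 1 and at 3.45, 3.37 and 3.72 FPKM at day 3. Every library of day 3 was above every library of day 1. The fold change was 2.83 in siCtrl cells (log2 1.5, SE 0.12, adjusted p = 3.94e-06, edgeR) and 1.88 in siPRMT1 cells (log2 0.91, SE 0.091, adjusted p = 1.07e-06, edgeR). The 4 groups did not overlap with their neighbours in the order siCtrl day 3, siPRMT1 day 3, siPRMT1 day 1 and siCtrl day 1, from high to low.

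Tgfb3 moved the other way. Its siCtrl libraries read 6.51, 7.63 and 8.60 FPKM at day 1 and 5.37, 5.26 and 4.75 FPKM at day 3. The siPRMT1 libraries read 8.30, 8.11 and 8.37 FPKM at day 1 and 5.68, 5.83 and 6.15 FPKM at day 3. The days did not overlap with either siRNA. The log2 fold change was -0.63 (SE 0.13, adjusted p = 0.00172, edgeR) in siCtrl cells and -0.50 (SE 0.073, adjusted p = 3.88e-05, edgeR) in siPRMT1 cells. The latter lies at the threshold of 0.5, and leaving out siPRMT1 day 1 replicate 1 (-0.498), siPRMT1 day 3 replicate 1 (-0.484) or siPRMT1 day 3 replicate 2 (-0.493) put it just inside, with adjusted p of 0.000491 at most. It was also inside with at least 10 counts required in every library (-0.4996), in 1 model of 12 libraries (-0.4981) and with limma on FPKM (-0.48 with a pseudocount of 0.1 and -0.43 with 1). The value in siCtrl cells was inside with limma on log2(FPKM + 1) (-0.48, adjusted p = 0.00499).

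Tgfb1, the most abundant of the 3 ligand transcripts, was at 15.5, 14.7 and 19.5 FPKM in siCtrl cells at day 1 and at 25.2, 23.2 and 23.1 FPKM at day 3, again without overlap. Its log2 fold change of 0.46 (SE 0.12, adjusted p = 0.00802, edgeR) missed the threshold on size. Without siCtrl day 1 replicate 3, the highest of the day 1 values, it was 0.58 and passed, and with limma on FPKM it passed as well (0.51 with a pseudocount of 1 and 0.53 with 0.1). In siPRMT1 cells Tgfb1 was at 16.8, 15.9 and 18.5 FPKM at day 1 and at 17.9, 22.2 and 23.4 FPKM at day 3, where the groups overlapped and the log2 fold change was 0.30 (SE 0.092, adjusted p = 0.0117, edgeR).

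The make-up of the ligand transcripts differed between the days accordingly. Tgfb1 made up 64.5% ± 2.0 of the summed FPKM of Tgfb1, Tgfb2 and Tgfb3 in siCtrl cells at day 1 and 71.3% ± 0.708 at day 3 (SD, n = 3). The share of Tgfb2 was 5.88% ± 0.673 at day 1 and 13.4% ± 0.309 at day 3, and that of Tgfb3 was 29.6% ± 2.37 and 15.3% ± 0.615. In siPRMT1 cells the share of Tgfb2 was 6.80% ± 0.422 at day 1 and 11.6% ± 1.06 at day 3, and that of Tgfb3 was 30.4% ± 1.31 and 19.3% ± 1.43. At day 3 the Tgfb3 share was higher in each siPRMT1 library than in each siCtrl library. These shares describe transcripts and were not tested.

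**Figure D2:**
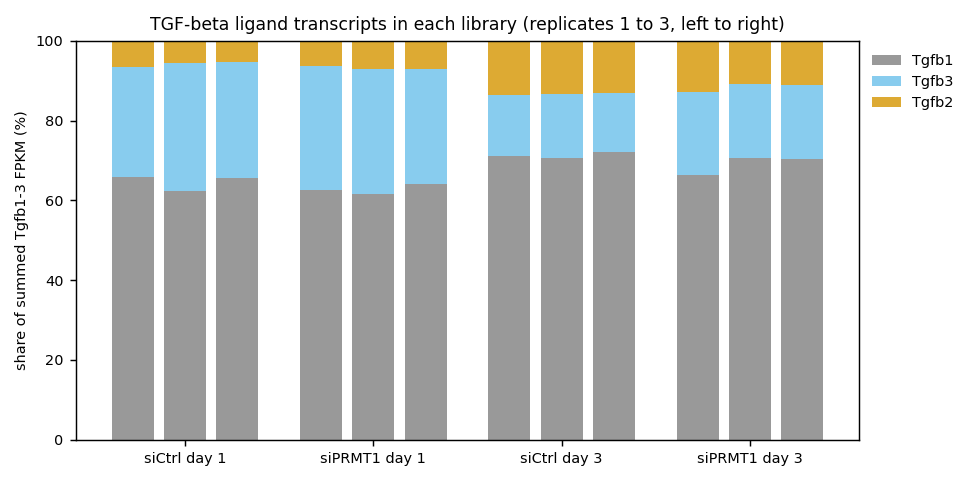
Share of Tgfb1, Tgfb3 and Tgfb2 in their summed FPKM, in percent, with 1 bar for each of the 12 libraries. Tgfb2 makes up 5.88% of the sum on average in siCtrl cells at day 1 and 13.4% at day 3, and Tgfb3 makes up 29.6% and 15.3%.

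Inhba encodes the subunit of activin A, a ligand that signals through its own receptors to the same Smad2 and Smad3. In siPRMT1 cells it was at 1.48, 1.81 and 1.63 FPKM at day 1 and at 0.81, 0.71 and 0.80 FPKM at day 3, a log2 fold change of -1.10 (SE 0.11, adjusted p = 1.19e-06, edgeR) without overlap. In siCtrl cells it was at 1.66, 1.33 and 0.76 FPKM at day 1 and at 0.79, 0.72 and 0.78 FPKM at day 3. The library that stood apart, siCtrl day 1 replicate 3, lay among the values of day 3, so the days overlapped. The log2 fold change in siCtrl cells was -0.79 (SE 0.24, adjusted p = 0.0179, edgeR), and without that library it was -1.05 (adjusted p = 5.32e-06). The call was lost when siCtrl day 1 replicate 1 was left out (-0.53, adjusted p = 0.0556), and likewise without siCtrl day 3 replicate 1 (-0.86, adjusted p = 0.0511), replicate 2 (-0.82, adjusted p = 0.0650) or replicate 3 (-0.85, adjusted p = 0.0641). Over all alternatives of this result the adjusted p ran from 5.32e-06 to 0.165.

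Bmp4, a BMP ligand that commits precursor cells to the fat lineage, had 0 or 1 count in every library: 1 count in each siPRMT1 library of day 3, in siCtrl day 1 replicate 3 and in siPRMT1 day 1 replicate 3, and 0 in the other 7. A count of 3, the limit that a count of 0 allows, corresponds to 0.0708 to 0.198 CPM (counts scaled to the library total), counting error only. Bmp4 was below the filter and was not tested, and no difference was detectable at this depth.

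The receptors Tgfbr2 and Tgfbr3 fell the most steeply of the 8 in siCtrl cells. Tgfbr2 was at 87.7, 84.8 and 97.9 FPKM in siCtrl cells at day 1 and at 35.2, 35.7 and 31.7 FPKM at day 3. In siPRMT1 cells it was at 74.8, 71.5 and 71.1 FPKM at day 1 and at 32.5, 34.2 and 35.8 FPKM at day 3. The days lay far apart in both, with a log2 fold change of -1.47 (SE 0.089, adjusted p = 5.13e-07, edgeR) in siCtrl cells and -1.10 (SE 0.057, adjusted p = 1.31e-09, edgeR) in siPRMT1 cells.

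The co-receptor Tgfbr3 was at 113, 115 and 120 FPKM in siCtrl cells at day 1 and at 42.7, 43.8 and 40.5 FPKM at day 3. In siPRMT1 cells it was at 113, 110 and 107 FPKM at day 1 and at 43.9, 46.0 and 48.4 FPKM at day 3. All values of day 3 were below all values of day 1, with a log2 fold change of -1.52 (SE 0.072, adjusted p = 1.07e-07, edgeR) in siCtrl cells and -1.27 (SE 0.057, adjusted p = 3.16e-10, edgeR) in siPRMT1 cells. Tgfbr1, which carries the kinase that phosphorylates Smad2 and Smad3, was at 18.2, 16.8 and 11.5 FPKM in siCtrl cells at day 1 and at 23.3, 17.7 and 19.0 FPKM at day 3. The groups overlapped, and the log2 fold change of 0.29 (95% interval -0.07 to 0.65, adjusted p = 0.142, edgeR) was not called, nor was that of 0.18 (-0.05 to 0.41, adjusted p = 0.154) in siPRMT1 cells.

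Smad7 was at 2.1, 2.18 and 2.22 FPKM in siCtrl cells at day 1 and at 2.15, 1.73 and 1.76 FPKM at day 3, with overlap (log2 -0.27, SE 0.13, adjusted p = 0.0905, edgeR). In siPRMT1 cells it was at 2.68, 2.53 and 3.03 FPKM at day 1 and at 2.18, 1.97 and 1.93 FPKM at day 3. These groups did not overlap, but the log2 fold change of -0.45 (SE 0.10, adjusted p = 0.0014, edgeR) missed the threshold on size. Smad7 passed without siPRMT1 day 1 replicate 2 (-0.51, adjusted p = 0.000958) or siPRMT1 day 3 replicate 1 (-0.51, adjusted p = 0.000558). An antisense gene, Gm41776, overlaps 3.67% of the exon bases of Smad7, and the strand setting of the counting is not given in the sources used here. Groups without overlap were found for 5 of the 8 genes in siCtrl cells, where 64.7% of all genes tested had none, and for 6 of the 8 in siPRMT1 cells, beside 66.7%.

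**Figure D3:**
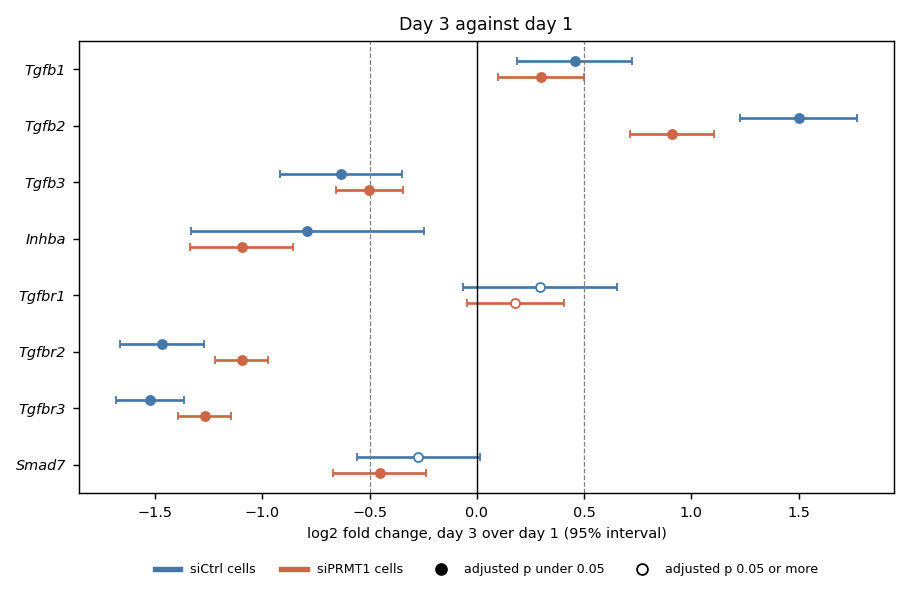
Log2 fold change of day 3 over day 1 for 8 genes in siCtrl and siPRMT1 cells, with 95% intervals from edgeR (linear axis). Filled points have an adjusted p under 0.05 and dashed lines mark an absolute log2 fold change of 0.5. Tgfb2 lies at 1.5 and 0.91, while Tgfbr2 lies at -1.47 and -1.10 and Tgfbr3 at -1.52 and -1.27.

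The next comparison, siPRMT1 against siCtrl at each day, asked whether these transcripts differed with the knockdown of PRMT1. None of the 8 genes tested was called at either day. At day 1, 1.95% of all genes tested were called higher and 1.61% lower (3.56% in all), and at day 3 the shares were 2.84% and 3.80% (6.65%). With no threshold on fold, 1 of the 8 passed an adjusted p of 0.05 at each day, beside 7.60% of all genes tested at day 1 and 16.5% at day 3. An unadjusted p under 0.05 was reached by 3 of the 8 at day 1, beside 24.6% of all genes, and by 2 at day 3, beside 31.3%. DESeq2 also called none at either day.

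At day 1 the gene with the smallest p was Tgfbr2, at 74.8, 71.5 and 71.1 FPKM in siPRMT1 cells and 87.7, 84.8 and 97.9 FPKM in siCtrl cells. All siPRMT1 libraries lay below all siCtrl libraries, by a log2 fold change of -0.36 (SE 0.067, adjusted p = 0.0185, edgeR), which is 0.777-fold and under the threshold on size. Without siCtrl day 1 replicate 3 it was -0.31 (adjusted p = 0.000811), and over all alternatives the adjusted p ran from 0.000811 to 0.0941. It was above 0.05 without siCtrl day 1 replicate 2 (0.0548) and without siPRMT1 day 1 replicate 1 (0.0629), replicate 2 (0.0737) or replicate 3 (0.0941). At day 3 Tgfbr2 was at 32.5, 34.2 and 35.8 FPKM against 35.2, 35.7 and 31.7 FPKM, with a log2 fold change of -0.0073 (95% interval -0.16 to 0.15).

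Tgfb2 had the smallest p at day 3, at 3.45, 3.37 and 3.72 FPKM in siPRMT1 cells and 4.86, 4.37 and 4.20 FPKM in siCtrl cells. The groups did not overlap, and the log2 fold change was -0.36 (SE 0.090, adjusted p = 0.0134, edgeR), or 0.781-fold. Over its alternatives the adjusted p ran from 0.00935 to 0.108, and it was above 0.05 without siPRMT1 day 3 replicate 2 (-0.32, adjusted p = 0.0773). At day 1 the order was the other way, with each siPRMT1 library (1.69 to 2.03 FPKM) above each siCtrl library (1.32 to 1.61 FPKM), but the log2 fold change of 0.25 (95% interval -0.02 to 0.52, adjusted p = 0.238, edgeR) did not pass the test.

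Smad7 was also listed higher in every siPRMT1 library (2.53 to 3.03 FPKM) than in every siCtrl library (2.1 to 2.22 FPKM) at day 1. Its log2 fold change of 0.29 (SE 0.10) had an adjusted p of 0.123, and without siCtrl day 1 replicate 3 it was 0.30 with an adjusted p of 0.0431. At day 3 the Smad7 groups overlapped (log2 0.10, adjusted p = 0.614, edgeR). Tgfbr3 differed by -0.12 at day 1 and 0.12 at day 3 and Tgfb3 by 0.20 at day 3 on the log2 scale. Their groups did not overlap there and their adjusted p were 0.185, 0.264 and 0.150. In all, groups without overlap were found for 4 of the 8 genes at day 1 (32.2% of all genes tested) and 3 of the 8 at day 3 (34.8%).

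The remaining values at day 1 were -0.0044 for Tgfb1 (95% interval -0.26 to 0.25), 0.08 for Tgfb3 (-0.16 to 0.32), 0.04 for Tgfbr1 (-0.37 to 0.44) and 0.32 for Inhba (-0.25 to 0.88) on the log2 scale. All of these groups overlapped. At day 3 they were -0.18 for Tgfb1 (-0.37 to 0.02), -0.09 for Tgfbr1 (-0.31 to 0.13) and 0.01 for Inhba (-0.26 to 0.27), also with overlap. Of the intervals at day 1, that of Inhba left room for the widest range, and without siCtrl day 1 replicate 3 its log2 fold change was 0.06. The signs of Tgfb1 and Tgfbr1 at day 1 turned without that library, to 0.11 and -0.15, with no value passing the test.

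**Figure D4:**
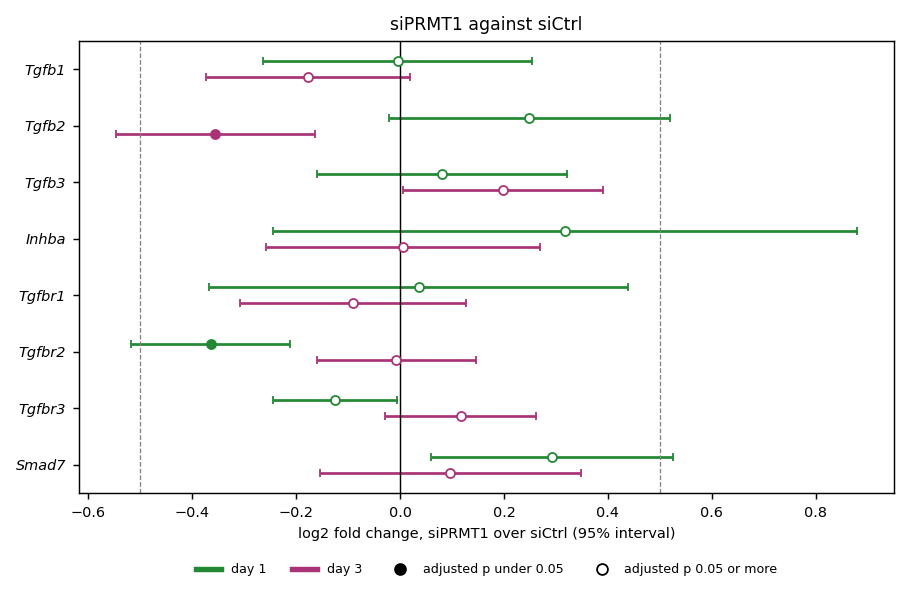
Log2 fold change of siPRMT1 over siCtrl for 8 genes at day 1 and day 3, with 95% intervals from edgeR (linear axis). Filled points have an adjusted p under 0.05 and dashed lines mark an absolute log2 fold change of 0.5. All points lie between the dashed lines, and the 2 filled ones are Tgfbr2 at day 1 (-0.36) and Tgfb2 at day 3 (-0.36).

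Whether the effect of the knockdown differed between the days was tested as an interaction of siRNA and day over all 12 libraries, given as the log2 fold change at day 3 minus that at day 1. The comparisons share libraries, since each group enters a comparison of siRNAs, a comparison of days and the interaction. Over all genes tested, 4.77% were called with a positive interaction and 3.47% with a negative one (8.24% in all). Of the 8 genes, 1 was called, Tgfb2, with an interaction of -0.58 (SE 0.15, adjusted p = 0.0183, edgeR). Its rise between the days was therefore smaller in siPRMT1 cells (1.88-fold) than in siCtrl cells (2.83-fold). Without siPRMT1 day 1 replicate 3 the adjusted p was 0.0617 and without siPRMT1 day 3 replicate 2 it was 0.0518, and on log2(FPKM + 1) with limma the value was -0.47 (adjusted p = 0.0141), under the threshold on size. Over all alternatives its adjusted p ran from 0.00384 to 0.0617. Tgfbr2 had an interaction of 0.38 (SE 0.10, adjusted p = 0.0275, edgeR; 0.0061 to 0.0814 over its alternatives), under the threshold on size, and Tgfbr3 one of 0.26 (adjusted p = 0.0572). For the other 5 genes the adjusted p was 0.513 or more.

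The other genes of the pathway were followed through 8 lists of 104 genes in all: other ligands, other receptors, latency and activation, extracellular antagonists, intracellular mediators, intracellular inhibitors, TGF-β response genes and BMP response genes. Between 80 and 83 of the 104 passed the filter on low counts in each comparison. These lists were written with earlier results of these data known, so their counts describe the genes and are not set against chance.

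Between day 1 and day 3, more pathway genes fell than rose. In siCtrl cells 13 of 81 genes rose and 36 fell, beside 22.7% and 20.4% of all genes tested. The median log2 fold change of the 81 was -0.42 beside -0.0042 over all genes tested. In siPRMT1 cells 12 of 82 rose and 35 fell, beside 19.0% and 17.4%, with a median of -0.20 beside 0.0022. The lists differed among themselves: of the intracellular inhibitors 1 of 10 rose and none fell in siCtrl cells (median 0.23), and of the other ligands 2 of 8 rose and 2 fell (median 0.16). The summed level of the preadipocyte and fibroblast markers, which share Col1a1 and Col1a2 with the TGF-β response list, also moved. It was 1615 to 1679 FPKM in siCtrl cells at day 1 and 529 to 566 FPKM at day 3, and 1489 to 1525 FPKM and 707 to 797 FPKM in siPRMT1 cells. The adipocyte list summed to 146 to 151 FPKM and 2264 to 2457 FPKM in siCtrl cells, and to 110 to 124 FPKM and 1771 to 2017 FPKM in siPRMT1 cells. The part of this change in cell state in the values of single genes was not tested.

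Genes that hold or release latent TGF-β fell with the days in siCtrl cells in 7 of 12 cases and rose in 1. Over all genes tested, 20.4% fell and 22.7% rose in siCtrl cells, and these shares also apply to the list counts that follow. Ltbp1, which ties the latent complex to the matrix, had a log2 fold change of -2.55 (adjusted p = 1.65e-08, edgeR), and Fbn1, which encodes fibrillin in the microfibrils that anchor it, had -2.50 (adjusted p = 6.59e-09). Thbs1, which encodes thrombospondin, an activator of latent TGF-β, was the 1 that rose, from 7.39 ± 0.436 to 17.1 ± 2.14 FPKM (SD, n = 3). Among extracellular antagonists 4 of 6 fell and none rose in siCtrl cells. These included Fst, which encodes the activin trap follistatin (-1.17, adjusted p = 3.42e-06), and Twsg1 (-0.99, adjusted p = 3.04e-06). The TGF-β response list had 12 of 18 genes lower and 5 higher in siCtrl cells. Fn1 (fibronectin) had a log2 fold change of -2.33 (adjusted p = 3.63e-09) and Lox, which crosslinks collagen, one of -2.60 (adjusted p = 1.08e-08), while Acta2, the smooth muscle actin of contractile cells, rose by 1.95 in siCtrl and 2.67 in siPRMT1 cells. The list thus did not move in 1 direction. Of the BMP response genes 5 of 8 fell and 1 rose in siCtrl cells, with Id2 at -1.69 (adjusted p = 2.45e-07) and Id4 at -1.90 (adjusted p = 3.11e-06), both inhibitors of DNA-binding factors.

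Among signal mediators, Smad2 rose by 0.54 in siCtrl cells (adjusted p = 0.000419, edgeR) and 0.62 in siPRMT1 cells (adjusted p = 1.13e-06) on the log2 scale. Smad3 fell by 0.56 and by 0.76 (adjusted p = 0.00101 and 6.28e-08). Smad2 and Smad3 thus moved apart at the transcript level. Smad4, which enters the nucleus with them, had a log2 fold change of -0.52 in siCtrl cells (adjusted p = 0.000318, edgeR). It was under the threshold on size in 3 of 15 alternatives. Of the 8 intracellular mediators tested, 1 rose and 3 fell in siCtrl cells. Without siCtrl day 1 replicate 3 or any 1 of the 3 siCtrl libraries of day 3, Smad2 in siCtrl cells was at 0.47 to 0.49 and under the threshold. Of the other ligands, Gdf5 was at 0.02 to 0.08 FPKM (1 to 4 counts) in the libraries of day 1 and at 2.05 to 3.05 FPKM (107 to 158 counts) in those of day 3. Gdf11, a ligand close to myostatin, fell by 1.02 in siCtrl cells (adjusted p = 7.67e-05). Of the other receptors, Acvr1 (-0.73) and the pseudoreceptor Bambi (-1.06) were lower in siCtrl cells, and Acvrl1, a type I receptor, rose from 1.78 ± 0.424 to 4.23 ± 0.422 FPKM.

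At day 1 the knockdown called 5 of 80 pathway genes higher and 2 lower, beside 1.95% and 1.61% of all genes tested. The median log2 fold change of the pathway genes was 0.019 beside 0.0096 over all genes tested. Amh, the gene of anti-Müllerian hormone, had the largest log2 fold change of them, 2.16 (adjusted p = 0.00225, edgeR), at 3.85 ± 0.470 FPKM in siPRMT1 and 0.857 ± 0.190 FPKM in siCtrl cells. Gdf15, a stress-induced ligand, was higher by 1.60 (adjusted p = 0.0143) on 10 to 38 counts per library, and Gdf11 by 0.61 (adjusted p = 0.0123). Lrrc32, which holds latent TGF-β at the cell surface, was higher by 1.09 (adjusted p = 0.0197) on 26 to 70 counts per library. Tgif1, a co-repressor of Smad2 and Smad3, was higher by 0.65 (adjusted p = 0.00758). The receptor genes Acvrl1 and Bambi were lower by log2 fold changes of -1.06 (adjusted p = 0.0142) and -0.58 (adjusted p = 0.0292). Of the 7 calls 2 were left when siCtrl day 1 replicate 2 or any 1 of siPRMT1 day 1 replicates 1, 2 and 3 was left out, and 10 pathway genes were called without siCtrl day 1 replicate 3. Over the 6 fits with 1 library left out, Amh kept its call in 6 and Tgif1 in 5. Acvrl1 kept it in 3, Gdf11 and Gdf15 in 2 each, and Lrrc32 and Bambi in 1 each. The log2 fold change of Bambi ran from -0.65 to -0.45 in these fits, so it was partly under the threshold on size. Over all genes, 0.893% to 6.26% were called when 1 library was left out, against 3.56% with all libraries. The share rose only without siCtrl day 1 replicate 3 (6.26%) and fell without any other library. The cause was not tested.

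At day 3 the knockdown called 10 of 80 pathway genes higher and 1 lower, beside 2.84% and 3.80% of all genes tested. The median was 0.15 beside 0.0073 over all genes tested, and leaving out any 1 library left the count of calls within 1.5 times. The genes of latent TGF-β and its activation had 4 of 12 higher and none lower. Ltbp1 was at 11.3 ± 0.835 FPKM in siPRMT1 cells and 7.0 ± 0.0950 FPKM in siCtrl cells, a log2 fold change of 0.69 (adjusted p = 1.63e-05, edgeR). Thbs1 was at 26.7 ± 1.09 against 17.1 ± 2.14 FPKM (0.63, adjusted p = 0.000133), Fbn1 at 22.8 ± 1.1 against 15.3 ± 0.420 FPKM (0.57, adjusted p = 3.67e-05), and Lrrc32 was higher by 0.90 (adjusted p = 0.0130) on 11 to 49 counts per library. Chrdl1, an antagonist whose product binds BMP ligands, was higher by 0.97 (adjusted p = 2.31e-05). Lrrc32 lost its adjusted p under 0.05 without siCtrl day 3 replicate 2 (0.0516) or siPRMT1 day 3 replicate 3 (0.0569), and with DESeq2 (0.0721).

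The TGF-β response genes of day 3 had 2 of 18 higher and 1 lower, beside 2.84% and 3.80% of all genes tested, with a median of 0.32. Lox was at 49.8 ± 2.57 FPKM in siPRMT1 and 27.0 ± 2.39 FPKM in siCtrl cells (log2 0.88, adjusted p = 2.31e-06, edgeR), and Snai2, a repressor of epithelial genes, at 12.1 ± 0.624 against 6.75 ± 0.0681 FPKM (0.84, adjusted p = 1.63e-05). Bhlhe40, a transcriptional repressor that many stimuli induce, was at 34.1 ± 1.39 against 60.6 ± 3.40 FPKM (-0.84, adjusted p = 2.29e-06). Both ligand genes called at day 3, Amh (1.23, adjusted p = 0.000162) and Gdf11 (0.56, adjusted p = 0.0054), were also called at day 1. Without siPRMT1 day 3 replicate 3, Gdf11 was at 0.50 and just under the threshold on size. At the same day the preadipocyte and fibroblast list summed to 707 to 797 FPKM in siPRMT1 cells against 529 to 566 FPKM in siCtrl cells, and the adipocyte list to 1771 to 2017 FPKM against 2264 to 2457 FPKM. Their part in these differences was not tested.

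**Figure D5:**
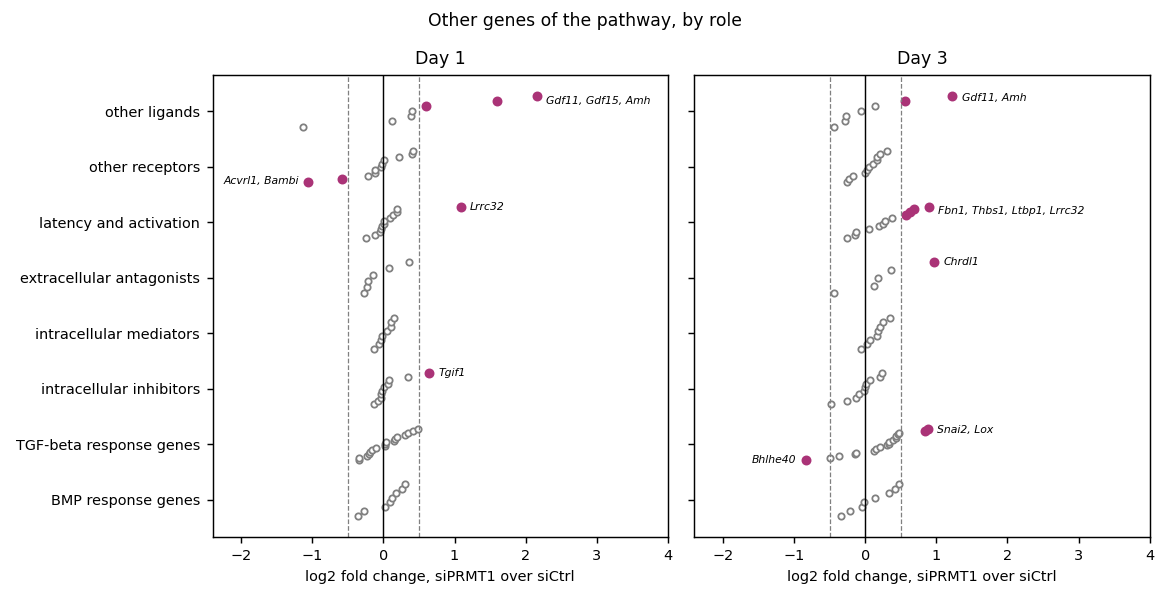
Log2 fold change of siPRMT1 over siCtrl for the pathway genes tested, by list, at day 1 (left) and day 3 (right). Each point is a gene, spread vertically by rank. The plot leaves out 1 of the genes counted. Filled, named points were called and dashed lines mark an absolute log2 fold change of 0.5. At day 1, 5 genes were called higher and 2 lower, and at day 3, 10 higher and 1 lower.

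The interaction was called for 19 of 83 pathway genes, 13 positive and 6 negative, beside 4.77% and 3.47% of all genes tested. Lox lay at -0.34 at day 1 and 0.88 at day 3 (interaction 1.24, adjusted p = 4.16e-06, edgeR), and Col1a2 at -0.21 and 0.46 (0.69, adjusted p = 0.000144). Their fall between the days was smaller in siPRMT1 cells, with log2 fold changes of -1.37 against -2.60 for Lox and -0.68 against -1.36 for Col1a2. Tgif1 was higher with the knockdown at day 1 and at 7.96 ± 0.698 against 7.89 ± 0.275 FPKM at day 3, an interaction of -0.62 (adjusted p = 0.00683). On FPKM with limma, the split of interaction calls over all genes was 339 positive and 533 negative, against 697 and 507 on counts, and at day 1 the knockdown calls were 166 higher and 80 lower against 267 and 220. The interactions of these pathway genes kept their sign under every alternative run.

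For each gene called in at least 2 comparisons, the 3 genes with the most like course were taken over the 12 libraries, out of 12468 genes whose mean was 1 CPM or more. The measure was the root mean square difference of log2 CPM, with each gene centred on its mean. Tgfb2, whose own values spread by 0.63, was closest to Mmd (0.095), Mrps2 (0.10) and Pdp2 (0.11). Tgfb3 was closest to Habp4 (0.066), Map4 (0.066) and Myo9b (0.071). Tgfbr2 was closest to Igf2r (0.065), Pdk4 (0.082) and Cx3cl1 (0.11), and Tgfbr3 to Lrig3 (0.045), Gpc6 (0.060) and Med13l (0.064). Inhba was closest to Cep295 (0.12), Polq (0.13) and Fancm (0.14). Tgfbr2 and Tgfbr3 did not appear on each other's lists.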

How the data were processed

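The authors used cutadapt for trimming and HISAT2 for mapping, and the deposited table holds whole-number counts per gene for 12 libraries, without normalization. The submitters' processing notes name cutadapt 1.11, HISAT2 2.1.0, RSEM 1.2.6 and the build mm10, and the counting tool and its strand setting are not given in the sources used here. The deposited FPKM values were computed by the authors from these counts, the deposited gene length and each library's total, which was checked by recomputing them (largest difference 0.005). FPKM gives the levels and counts give the tests.

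Each siRNA comparison and each day comparison was fitted on its own 6 libraries and the interaction on all 12, with edgeR 4.0.16 (TMM, filterByExpr, quasi-likelihood F test) in R 4.3.3. P-values were adjusted by Benjamini-Hochberg over all genes tested, and genes were called if the adjusted p was under 0.05 and the log2 fold change beyond 0.5 in either direction. The method was tested on simulated data with 200 changed genes: 198 were recovered with 11 false calls among 13566 genes for the knockdown at day 1, and 136 with 6 among 14328 for the interaction. The planted changes were estimated at a median absolute log2 fold change of 0.99 in both. They lay in genes above a minimum level, with the same dispersion for all genes and no library apart from its group. The simulation therefore does not give the power for smaller changes or for these libraries. The members and lists were chosen with earlier results of these data known. Named besides the 9 genes and Prmt1 are, per list, called genes of the knockdown and the interaction (at most 4 with the smallest p), at most 2 genes with the smallest p per day comparison, and 3 genes of like course. Values of these genes in other comparisons are given beside them. The counts over lists include 1 gene that this rule names and that is not reported here. Alternatives were DESeq2 1.42.0, RLE factors, other filters, no fold threshold, the replicate number as a block, 1 model of 12 libraries, each library left out, and limma 3.58.1 on log2(FPKM + 1) or log2(FPKM + 0.1) with a minimum mean of 1 FPKM or none. Positions come from RefSeq on GRCm38.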

Additional observations from a re-analysis of the deposited data

Results flagged for a closer look

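The effect of the knockdown at day 3 minus that at day 1 passed an adjusted p of 0.05 (edgeR, interaction over 12 libraries) for these 16 named genes, each with 3 libraries per group. Over all genes tested, 12.3% passed this adjusted p. For Tgfb2 the value was -0.58 and for Tgfbr2 0.38 on the log2 scale. Among the other pathway genes, the positive values were 0.85 for Acvrl1, 0.71 for Bambi, 1.21 for Chrdl1, 0.69 for Col1a2, 0.79 for Id4, 1.24 for Lox, 0.58 for Ltbp1, 1.02 for Snai2 and 0.68 for Thbs1. The negative values were -0.92 for Amh, -0.84 for Bhlhe40, -1.86 for Gdf15, -0.64 for Rgma and -0.62 for Tgif1. For Gdf15 the libraries held 10 to 38 counts. Antisense genes overlap 3.79% of the exon bases of Bhlhe40, 7.04% of Rgma and 4.94% of Id4. For Amh the adjusted p was 0.0535 to 0.0975 when any 1 library was left out, except siCtrl day 1 replicates 2 and 3, siPRMT1 day 1 replicate 1 and siPRMT1 day 3 replicate 2. Without siCtrl day 3 replicate 2 it was 0.0533 for Rgma and 0.0523 for Bambi, and without siCtrl day 1 replicate 3 the value of Ltbp1 was 0.48, under the threshold on size. With limma on log2(FPKM + 1) the value was 0.38 for Acvrl1 (adjusted p = 0.0880, or 0.196 with no filter on FPKM), 0.43 for Bambi (0.0295, or 0.0764 with no filter) and 0.44 for Ltbp1 (0.0109, or 0.0180 with no filter), and on log2(FPKM + 0.1) it was 0.499 for Ltbp1. For Tgfb2 the adjusted p was above 0.05 without siPRMT1 day 1 replicate 3 (0.0617) or siPRMT1 day 3 replicate 2 (0.0518), and with limma on log2(FPKM + 1) the value was -0.47.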

How the results depend on the processing

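The counts of calls among the 9 genes and among the pathway genes were within 1.5 times under the alternatives run, with these exceptions. With no threshold on fold, 1 of the 8 genes tested was called at day 1, 1 at day 3 and 2 in the interaction, as the looser rule admits. The shares of all genes tested were 7.60%, 16.5% and 12.3%. Of the 80 pathway genes tested, 12 were called at day 1 and 35 at day 3 by this rule. On log2(FPKM + 1) with limma, 0 of the 9 genes had a called interaction, with or without the filter on FPKM, and the cause was not tested. With 1 library left out, the pathway genes called at day 1 ran from 2 to 10 and the genes of the 9 with a called interaction from 0 to 1. The sign of the knockdown effect turned for values near 0. For Tgfb1 at day 1 it was 0.0014 with the replicate number as a block, 0.048 with limma on log2(FPKM + 1), with or without the filter, and 0.051 on log2(FPKM + 0.1). For Tgfbr2 at day 3 it was 0.0087 with no filter on low counts, and for Inhba at day 3 it was -0.0040 in 1 model of 12 libraries. With 1 library left out, the log2 fold change at day 1 ran from -0.078 to 0.11 for Tgfb1, from -0.020 to 0.18 for Tgfb3 and from -0.15 to 0.17 for Tgfbr1. At day 3 it ran from -0.21 to 0.015 for Tgfbr1, from -0.061 to 0.035 for Tgfbr2 and from -0.035 to 0.071 for Inhba, and the interaction of Tgfbr1 from -0.24 to 0.036. None of these passed an adjusted p of 0.05, and no other sign turned. Inhba at day 3 was under the minimum mean of 1 FPKM, so the 2 limma alternatives with that filter gave it no value for the knockdown.

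Replicate numbers were shared across groups, but same-numbered libraries did not deviate together, with correlations of -0.17 to 0.22 over genes, not all above 0.1, and some libraries correlating better with another number. The replicate block left the calls of the 9 genes at 0, 0, 1, 5 and 5 for the knockdown at day 1, at day 3, the interaction and the day comparisons in siCtrl and siPRMT1 cells, and it changed no other call named here. Over all genes it called 536 at day 1 and 974 at day 3, against 487 and 933.

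Depth limits Bmp4 (0 or 1 count), Gdf15 (10 to 38 counts at day 1) and Lrrc32 (11 to 70 counts). With 3 libraries a group, the 95% intervals give the sizes of difference that these data do not exclude.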
